A study of Mus musculus with 8 samples.

Results

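The Kruppel-like factors other than Klf1 were represented in these whole-blood arrays by 9 genes, Klf2, Klf3, Klf4, Klf6, Klf7, Klf9, Klf10, Klf12 and Klf13. They were found as every probe set whose platform annotation gave a single gene symbol and gave one of these 9, which took 35 of the 45101 probe sets on the array and 9 of the 18193 genes that had such a probe set. The arrays came from 4 female C57BL/6J mice exposed to restraint stress (RST) and 4 control mice of the same strain and sex, with 1 array per mouse. All were purchased at 6 to 8 weeks of age and acclimated before the experiment. RST mice were held in a ventilated tube for 6 h a day, and control mice went without food and water over the same hours, so both groups shared that deprivation. Blood was taken on Day 7. Whole cages were assigned to one group or the other, so cage and restraint cannot be told apart in these samples. The question was how restraint moved each factor in circulating blood, a mixture of red cells, platelets and leukocytes in which fewer cells of a type and less RNA per cell cannot be told apart.

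Kruppel-like factors are zinc finger transcription factors that bind GC-rich and CACCC elements in promoters, and single members activate or repress depending on the cofactors they recruit. In blood, KLF2 keeps T cells quiescent and recirculating, KLF4 takes part in monocyte differentiation, and KLF3 and KLF12 are repressors that recruit the corepressor CtBP. KLF9 is induced by glucocorticoids, the hormones released under stress, and KLF10 by transforming growth factor beta (TGF-beta). In mouse red-cell precursors Klf3 is itself activated by KLF1.

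The family's own binding motif was looked for in the 250 bases before each start site, as RefSeq gives it for build GRCm38.p6. Of the 9 genes, 8 matched an entry; Klf10 was the other. CACCC, on either strand, was present in 6 of these 8 promoters and in 52.0% of all 32851 promoters of the same length. The Klf3 promoter held 5 such matches, and 0.667% of all promoters held 5 or more. The promoters of Klf3 and Klf9 are shown because the probe sets of these 2 genes did not move as one, with CACCC or its complement GGGTG in capitals. The Klf3 sequence lies at chr5:64803271-64803520 and the Klf9 sequence at chr19:23140976-23141225, both on the plus strand and written 5′ to 3′.
Klf3: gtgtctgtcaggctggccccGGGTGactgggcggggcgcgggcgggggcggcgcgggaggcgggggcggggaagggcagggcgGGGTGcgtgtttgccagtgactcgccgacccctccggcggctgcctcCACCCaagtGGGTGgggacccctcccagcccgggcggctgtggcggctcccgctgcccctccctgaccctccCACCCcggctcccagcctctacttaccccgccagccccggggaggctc
Klf9: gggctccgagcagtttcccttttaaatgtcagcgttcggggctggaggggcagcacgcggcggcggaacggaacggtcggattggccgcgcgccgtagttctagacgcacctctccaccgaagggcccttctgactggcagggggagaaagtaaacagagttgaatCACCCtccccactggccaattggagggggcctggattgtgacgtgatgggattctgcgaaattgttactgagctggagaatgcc
The Klf9 promoter held 1 CACCC match and 3 CCAAT boxes (CCAAT, either strand), and the Klf3 promoter 6 GC boxes (GGGCGG, either strand). A GC box was present in 6 of the 8 promoters and in 32.7% of all promoters, a CCAAT box in 3 of 8 and in 33.8%. The core of the glucocorticoid receptor element, ACANNNTGT, which reads the same on both strands, was in 0 of 8 and in 5.84% of all promoters, which says only that these letters were not in these windows.

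No factor passed the test after correction. Values are log2 expression after the authors' normalization, and a difference is RST minus control on that log2 scale. A probe set was kept for testing when it lay above the array's median in at least 2 of the 4 arrays of a group, and 27 of the 35 were kept. The 8 below the filter were 4 of Klf12, 3 of Klf9 and 1 of Klf6. By limma with Benjamini-Hochberg adjustment over all 25084 probe sets kept, 0 of 27 were called at an adjusted p under 0.05, as were 0% of all probe sets, and the lowest adjusted p among the members was 0.322. At an unadjusted p under 0.05, 1 of 27 passed (3.70%), against 13.6% of all probe sets kept. In 0 of 27 were the RST and control values free of overlap, against 7.99% of all (5.76% with RST lower and 2.23% with RST higher).

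Most members nevertheless had the lower mean in RST blood. The mean was lower in RST mice for 22 of 27 probe sets (81.5%), against 65.3% of all probe sets kept, and the median difference was -0.32 for the members and -0.20 for all. Of the 27, 18 lay below the median probe set and 9 above it. The direction rested in part on the scaling: the mean was lower in 16 of 27 after quantile normalization or median centring of the arrays, in 24 after scaling on the control probe sets and in 15 with the hybridization control signal in the model. Taking for each gene its probe set with the highest mean, 7 of the 9 factors had the lower mean in RST blood, against 67.6% of 11762 genes. The other 2, Klf7 and Klf12, had the higher mean, Klf12 turning to -0.063 after scaling on the control probe sets. The median was -0.37 for the 9 factors, against -0.24 over the 11762 genes. These counts describe the members beside all features and were not tested.

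**Figure D1:**
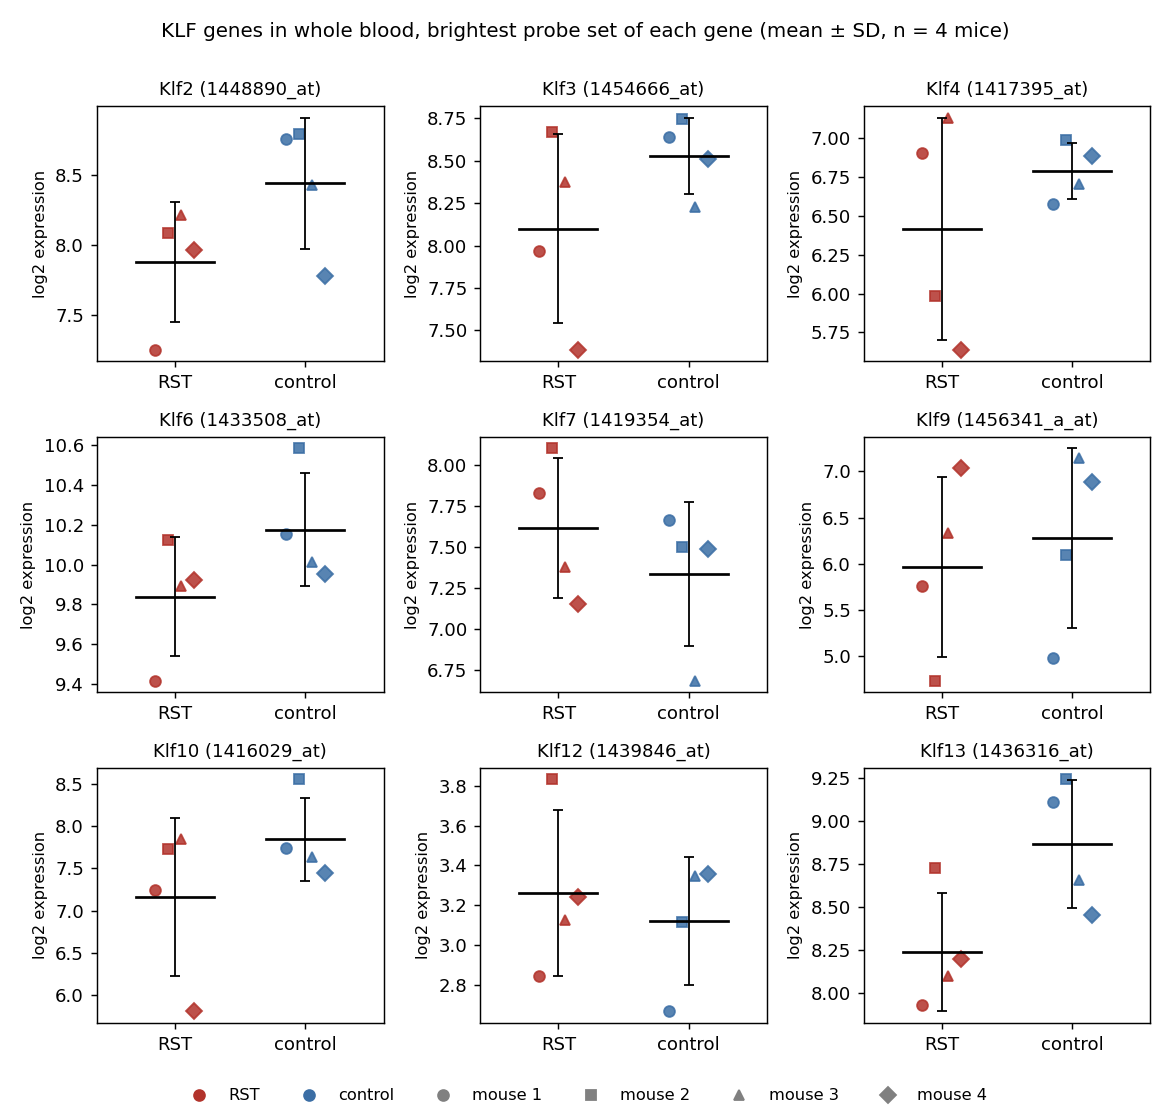
Log2 expression (vertical axes) of the representing probe set of each of the 9 factors, RST mice left and control mice right, 1 point per mouse with mean and SD (n = 4). RST and control points overlap in every panel, and 7 of the 9 means are lower in RST blood.

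**Figure D2:**
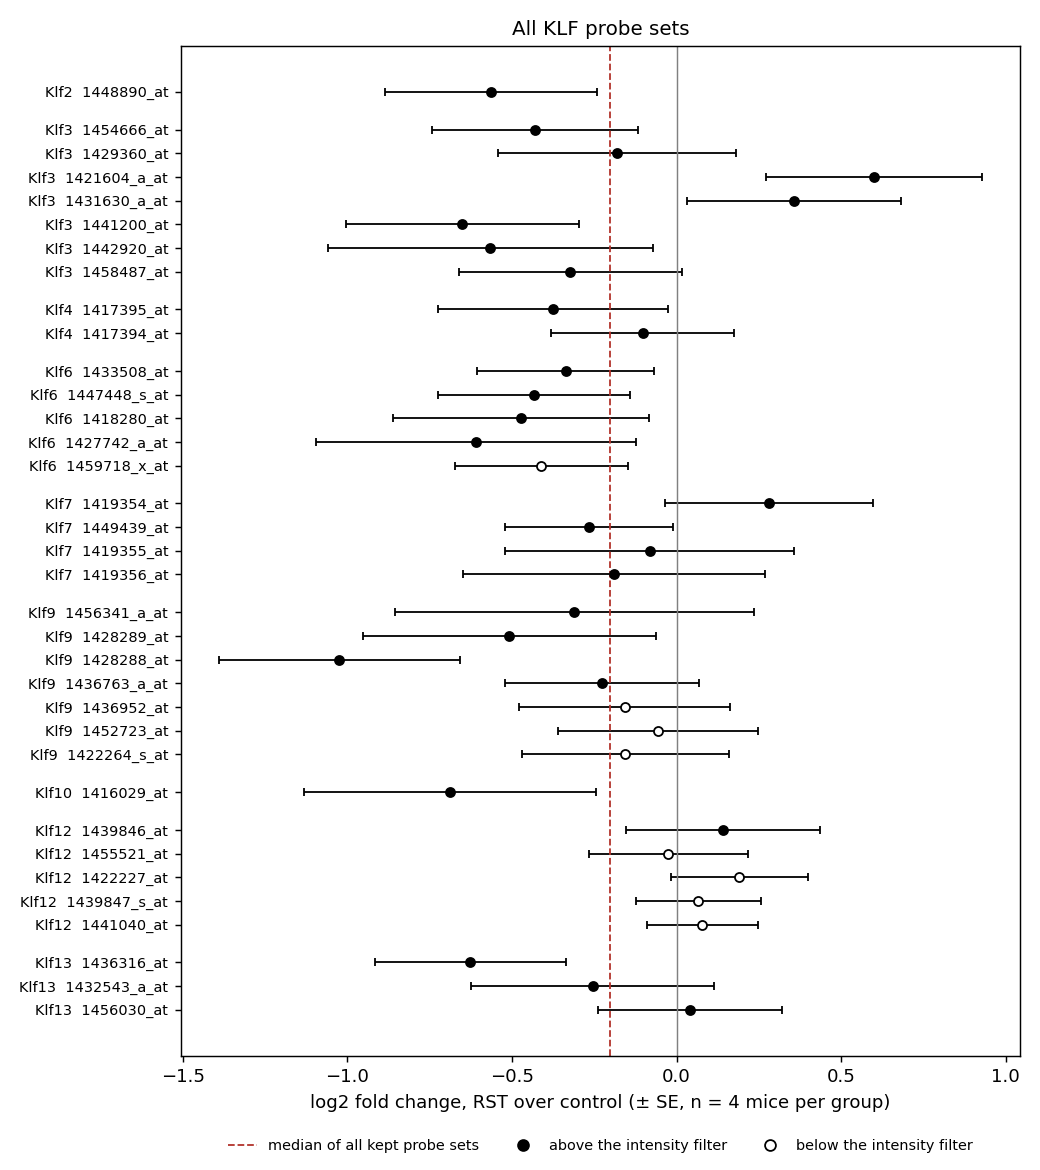
Difference in log2 expression, RST minus control, with its standard error (n = 4 mice per group) for all 35 probe sets, grouped by gene, filled where kept and open where below the filter. The dashed line is the median of all probe sets kept (-0.20). The 2 Klf3 probe sets to the right of 0 are 1421604_a_at (0.60) and 1431630_a_at (0.36), and the lowest value is that of Klf9 1428288_at (-1.02).

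Arrays also differed within the groups. The 18 hybridization control probe sets, spiked RNAs added to every sample, averaged 12.71, 12.35, 12.73 and 12.71 in RST mice 1 to 4, against 11.93, 11.90, 12.74 and 12.60 in control mice 1 to 4. The 3 arrays with the lowest control signal, those of control mice 1 and 2 and RST mouse 2, held the 3 highest values at 12 of the 27 member probe sets (44.4%), against 16.8% of all. The array of RST mouse 4 was the lowest of the 8 at 13 of 27, against 41.5% of all probe sets kept. The part of these array differences in the values below was not tested. Array profiles correlated at 0.88 to 0.964 within groups and 0.857 to 0.951 between groups.

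**Figure D3:**
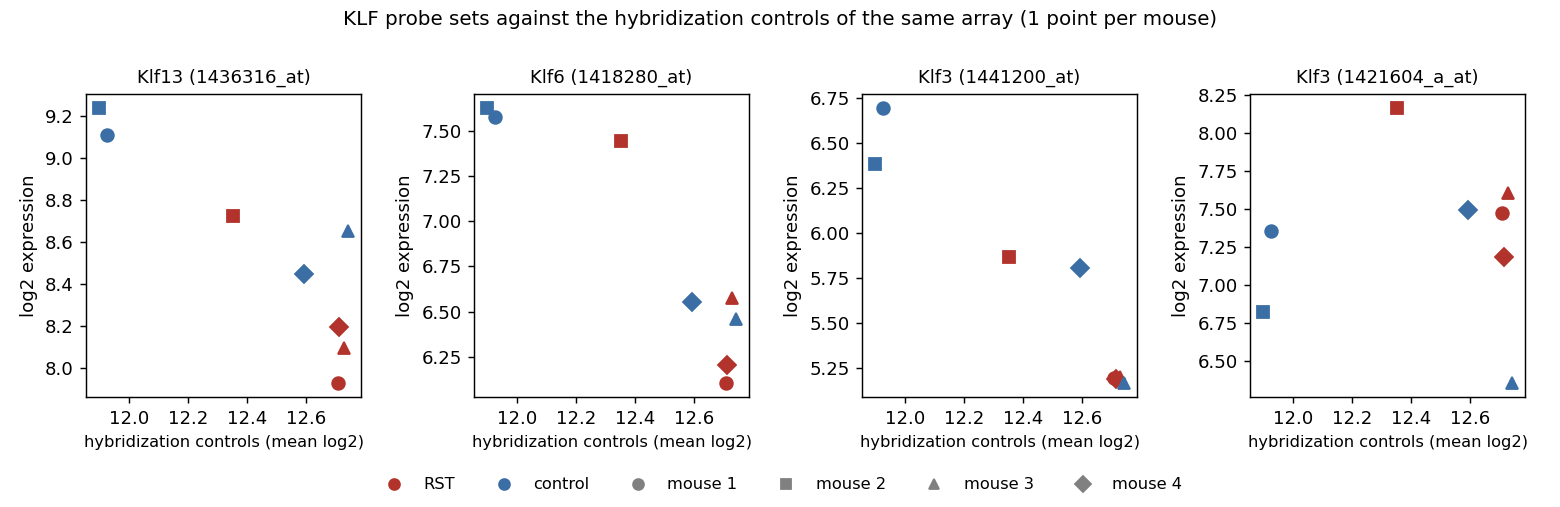
Log2 expression of Klf13 1436316_at, Klf6 1418280_at, Klf3 1441200_at and Klf3 1421604_a_at (vertical axes) against the mean log2 signal of the hybridization controls on the same array (horizontal axes), 1 point per mouse, with RST and control mice in different colours. The 3 arrays with the lowest control signal hold the 3 highest values in the first 3 panels and not in the last.

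Among the factors of lymphocytes, Klf2, Klf13 and Klf6 had lower means in RST blood. KLF2 maintains quiescence in T cells and activates S1pr1, the receptor that lets lymphocytes leave lymphoid organs. Its single probe set, 1448890_at, read 7.25, 8.09, 8.22 and 7.96 in RST mice, against 8.76, 8.80, 8.43 and 7.78 in control mice. Control mouse 4 lay among the RST values and the other 3 control mice above all of them. The difference was -0.56 ± 0.32 (SE, n = 4 each, limma adjusted p = 0.435, exact permutation p = 0.143, two-sided). It was -0.35 without RST mouse 1, -0.30 with the hybridization control signal in the model and -0.22 without control mice 1 and 2. When RST mouse 2 was left out as well, a setting added after the data were seen, it was -0.29.

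KLF13 activates the chemokine gene Ccl5 in T cells. Its main probe set 1436316_at read 7.93, 8.73, 8.10 and 8.20 in RST mice, against 9.11, 9.24, 8.65 and 8.45 in control mice. Only RST mouse 2 reached into the control range. The means were 8.24 ± 0.34 in RST mice and 8.86 ± 0.37 in control mice (SD, n = 4 each), a difference of -0.63 ± 0.29 (SE, limma unadjusted p = 0.0525, adjusted p = 0.371, exact permutation p = 0.0857). The 3 highest values were those of control mice 1 and 2 and RST mouse 2, and with the hybridization control signal in the model the difference was -0.32. The other Klf13 probe sets differed by -0.25 and 0.04.

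Klf6, a factor found in most tissues, had the lower mean in RST blood at all 4 of its kept probe sets. At 1433508_at it read 9.42, 10.12, 9.89 and 9.92 in RST mice, against 10.15, 10.58, 10.01 and 9.96 in control mice. RST mouse 1 was the lowest and RST mouse 2 lay inside the control range. The difference was -0.34 ± 0.27 (SE, n = 4 each, limma adjusted p = 0.568, exact permutation p = 0.143), and those at the other 3 probe sets were -0.43, -0.47 and -0.61. At 1433508_at it was -0.20 without RST mouse 1 or without control mouse 2, and -0.14 with the hybridization control signal in the model. At each of the 4 probe sets the arrays with low hybridization control signal held the 3 highest values.

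At each gene's probe set of highest mean, the SD among RST mice was largest for Klf9 (0.97) and Klf10 (0.94). Among control mice it was 0.97 for Klf9 and 0.49 for Klf10. Klf9, a glucocorticoid-induced repressor that works with the corepressor Sin3a, gave the single member probe set past an unadjusted p of 0.05, 1428288_at. It read 4.36, 5.53, 4.99 and 4.27 in RST mice, against 5.84, 6.43, 5.89 and 5.10 in control mice. The groups overlapped through control mouse 4 and RST mouse 2. The means were 4.79 ± 0.59 in RST mice and 5.81 ± 0.54 in control mice (SD, n = 4 each), a difference of -1.02 ± 0.37 (SE, 0.492-fold, limma unadjusted p = 0.0167, adjusted p = 0.322, exact permutation p = 0.0571). Leaving out each mouse in turn gave -1.27 to -0.82, and the hybridization control signal in the model gave -0.69 with an unadjusted p of 0.0885 by limma.

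The Klf9 probe sets did not follow one another. Probe set 1456341_a_at, which had the highest mean, read 5.76, 4.74, 6.33 and 7.04 in RST mice, against 4.98, 6.09, 7.14 and 6.89 in control mice, a difference of -0.31 ± 0.54 (SE, n = 4 each, limma adjusted p = 0.811, exact permutation p = 0.629). This value depended on single mice and on the array signal. It turned to 0.099 when RST mouse 2 was left out, and was -0.67 for RST mouse 4, -0.022 for control mouse 3, -0.11 for control mouse 4 and -0.74 for control mouse 1. It was -1.08 (limma unadjusted p = 0.0317) with the hybridization control signal in the model and -1.05 without control mice 1 and 2. When RST mouse 2, the third array with low control signal, was left out as well, it was -0.64. Probe set 1428289_at read 5.83, 4.29, 6.44 and 5.84 in RST mice, against 5.31, 6.29, 6.55 and 6.28 in control mice, a difference of -0.51 ± 0.45 (SE, limma adjusted p = 0.605). RST mouse 2 was the lowest of the 8 mice at both of these and the highest RST mouse at 1428288_at. Over the 8 mice these 2 correlated at r = 0.817 with each other and at -0.241 and 0.00723 with 1428288_at, given as a description, since all values come from the same arrays. The fourth kept probe set, 1436763_a_at, differed by -0.23, and the 3 below the filter by -0.06 to -0.16.

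**Figure D4:**
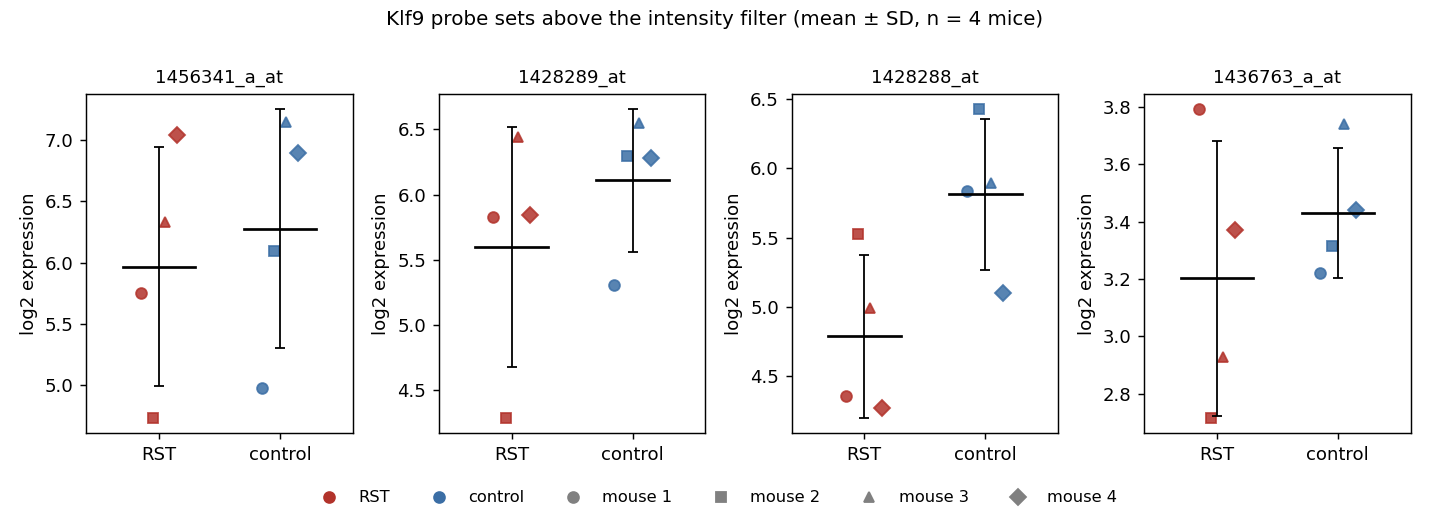
Log2 expression of the 4 kept Klf9 probe sets, RST left and control right, 1 marker shape per mouse number with mean and SD (n = 4). At 1428288_at the RST mean is 4.79 against 5.81 in control mice, while at 1456341_a_at and 1428289_at RST mouse 2 (square) is the lowest of the 8 mice.

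Klf10, which TGF-beta induces early, read 7.24, 7.73, 7.85 and 5.81 at 1416029_at in RST mice, against 7.74, 8.56, 7.64 and 7.45 in control mice. RST mouse 4 was the lowest of the 8 and lay far below the other 3 RST mice. The means were 7.16 ± 0.94 in RST mice and 7.84 ± 0.49 in control mice (SD, n = 4 each), a difference of -0.69 ± 0.44 (SE, limma adjusted p = 0.48, exact permutation p = 0.314), and leaving out RST mouse 4 gave -0.24, leaving out control mouse 2 gave -0.45, and the difference was -0.37 with the hybridization control signal in the model.

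Among the CtBP-binding repressors, the 7 Klf3 probe sets, all kept, pointed in opposite directions: 5 had the lower mean in RST blood and 2 the higher. The probe set with the highest mean, 1454666_at, read 7.97, 8.67, 8.38 and 7.39 in RST mice, against 8.64, 8.74, 8.23 and 8.51 in control mice. RST mouse 4 was the lowest, and the groups overlapped. The difference was -0.43 ± 0.31 (SE, n = 4 each, limma adjusted p = 0.531, exact permutation p = 0.229), and it was -0.19 without RST mouse 4 and -0.20 with the hybridization control signal in the model.

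Probe set 1421604_a_at of the same gene read 7.47, 8.16, 7.60 and 7.18 in RST mice, against 7.36, 6.82, 6.35 and 7.49 in control mice. The means were 7.60 ± 0.41 in RST mice and 7.00 ± 0.52 in control mice (SD, n = 4 each), a difference of 0.60 ± 0.33 (SE, limma adjusted p = 0.419, exact permutation p = 0.171). It was 0.38 without control mouse 3 and 0.80 (limma unadjusted p = 0.046) with the hybridization control signal in the model. Probe set 1431630_a_at read 7.20, 7.86, 7.22 and 6.38 in RST mice, against 6.87, 6.72, 6.53 and 7.11 in control mice, a difference of 0.36 ± 0.33 (SE, limma adjusted p = 0.619). The suffix of these 2 marks probe sets that the manufacturer assigned to alternative transcripts of 1 gene. The other 4 Klf3 probe sets differed by -0.65 to -0.18.

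No Klf3 probe set separated the groups alone, but the difference between a pair of them did. This comparison was chosen after the values were seen. The value of 1421604_a_at minus that of 1454666_at, each centred on its mean over the 8 mice, was 0.51, 0.50, 0.24 and 0.81 in RST mice, against -0.28, -0.91, -0.86 and -0.01 in control mice. All 4 RST mice lay above all 4 control mice. The 2 differences from control were 1.03 ± 0.28 apart (SE, limma unadjusted p = 0.00403, adjusted p = 0.368 over 13647 pairs of probe sets of 1 gene, exact permutation p = 0.0286, the smallest that 4 mice against 4 allow). Leaving out each mouse in turn gave 0.90 to 1.20, with the hybridization control signal in the model it was 1.00, and without control mice 1 and 2 it was 0.95.

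Of all 43 pairs of kept probe sets within the 9 genes, 7 did not overlap between groups, against 5.03% of all 13647 pairs, and all 7 lay in Klf3, which has 21 pairs. Probe set 1421604_a_at was free of overlap in 5 of 5 pairs with the 5 probe sets of lower mean in RST, and 1431630_a_at in 2 of 5. The pair formed by these 2 gave 0 of 1, and the 10 pairs among the other 5 gave 0. The 2 and the other 5 were divided by their direction in these same values, and the pairs share probe sets. These counts are therefore descriptions and not separate results. At an unadjusted p under 0.05 there were 10 of 43, against 9.73% of all pairs, and 0 after adjustment, as for 0% of all pairs. The 2 correlated at r = 0.852 over the 8 mice, and the other 5 at 0.644 to 0.97 among themselves.

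**Figure D5:**
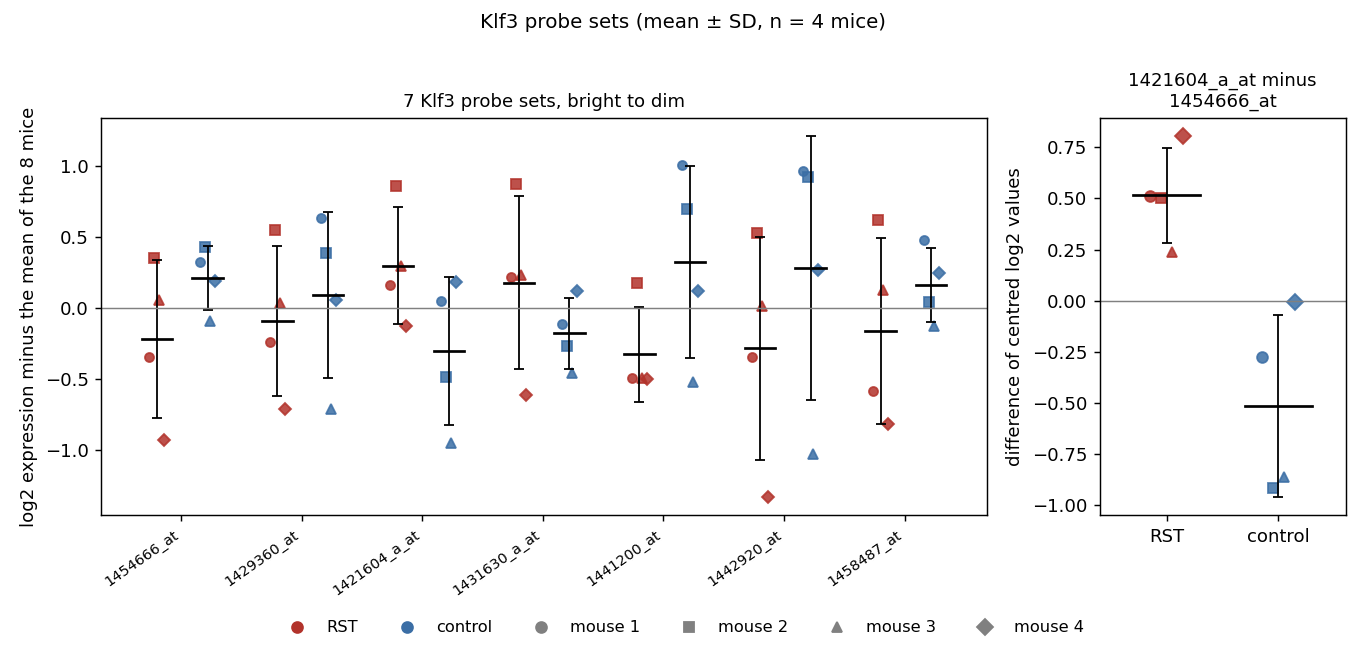
Left, log2 expression of the 7 Klf3 probe sets minus the mean of the 8 mice, and right, the difference of the centred log2 values of a pair, with RST left of control and the mean and SD (n = 4). The difference between 1421604_a_at and 1454666_at is 0.24 to 0.81 in RST mice and -0.91 to -0.01 in control mice.

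Klf12 was low. Only 1 of its 5 probe sets was kept, 1439846_at, which read 2.84, 3.83, 3.13 and 3.24 in RST mice, against 2.67, 3.12, 3.34 and 3.36 in control mice. RST mouse 2 was the highest of the 8 and the other values interleaved. The difference was 0.14 ± 0.29 (SE, n = 4 each, limma adjusted p = 0.843), it turned to -0.011 without control mouse 1, and those of the 4 below the filter were -0.02 to 0.19.

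Klf4, a factor of monocyte differentiation and of reprogramming to pluripotency, read 6.91, 5.99, 7.13 and 5.64 at 1417395_at in RST mice, against 6.58, 6.99, 6.71 and 6.89 in control mice. The RST values ran from below to above the narrower control range. The difference was -0.37 ± 0.35 (SE, n = 4 each, limma adjusted p = 0.625, exact permutation p = 0.4), and -0.10 at the other probe set. At 1417395_at it was -0.11 when RST mouse 4 was left out, -0.23 for RST mouse 2, -0.61 for RST mouse 3, and -0.024 after quantile normalization.

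Klf7, best known from developing neurons, read 7.83, 8.10, 7.38 and 7.16 at 1419354_at in RST mice, against 7.67, 7.50, 6.69 and 7.49 in control mice. The difference was 0.28 ± 0.32 (SE, n = 4 each, limma adjusted p = 0.694, exact permutation p = 0.429). It was 0.065 when control mouse 3 was left out, 0.12 for RST mouse 2, 0.43 for RST mouse 4, and 0.58 with the hybridization control signal in the model. The other 3 Klf7 probe sets had the lower mean in RST blood, by -0.08 to -0.27, and the mean over the 4 differed by -0.064.

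Genes around the factors were read from lists of partners, other family members and immediate early genes. Further lists held genes that share a process or an inducer with a factor. Only the KLF2 list was chosen to hold targets, among other genes of lymphocyte quiescence and trafficking. Each gene was read by its kept probe set of highest mean, and 0 genes of any list passed after adjustment. Over all 11762 genes read in this way, 67.6% had the lower mean in RST blood. Of all probe sets kept, 13.6% passed an unadjusted p under 0.05 by limma, 10.6% with RST lower. The groups did not overlap at 7.99% of them, 5.76% with RST lower. Of the KLF2 quiescence and trafficking list, 9 of 10 kept genes had the lower mean in RST blood, 6 of them at an unadjusted p under 0.05, and the list's median lay at -0.54 relative to the median gene, -0.33 with the hybridization control signal in the model and -0.35 without control mice 1 and 2. This median was -0.48 when RST mouse 2 was left out as well. S1pr1 averaged 4.75 ± 0.68 in RST mice and 6.32 ± 0.61 in control mice (SD, n = 4 each, limma unadjusted p = 0.00217, adjusted p = 0.321), with no overlap. Ccr7, the receptor that draws lymphocytes into lymph nodes, averaged 7.62 ± 0.31 in RST mice and 8.54 ± 0.43 in control mice (SD, n = 4 each, limma unadjusted p = 0.00914, adjusted p = 0.321), also with no overlap. The mean log2 level over the list was 6.90 to 7.99 in RST mice and 7.85 to 8.53 in control mice.

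For Klf9 and Klf10 the lists held other genes with the same inducer, and were not chosen as targets of these factors. They were glucocorticoid-induced genes, and genes of the TGF-beta pathway with its early response genes. Of 12 glucocorticoid-induced genes, 5 had the higher and 7 the lower mean in RST blood, with a median of -0.012 relative to the median gene (-0.12 to 0.13 with 1 mouse left out), and 1 passed an unadjusted p of 0.05 in each direction. These were Mt2, a metallothionein (5.01 ± 0.17 in RST and 4.18 ± 0.61 in control mice, SD, n = 4 each, limma adjusted p = 0.332), and Nfkbia, the inhibitor of NF-kB (9.68 ± 0.28 in RST and 10.28 ± 0.24 in control mice, limma adjusted p = 0.361). All 12 TGF-beta genes had the lower mean in RST blood, with a median of -0.36 relative to the median gene (-0.18 without RST mouse 4 and -0.060 with the hybridization control signal in the model), and the 2 at an unadjusted p under 0.05 were the feedback inhibitors Skil and Smad7. Skil averaged 6.67 ± 0.95 in RST and 7.75 ± 0.52 in control mice (SD, n = 4 each). Of all probe sets kept, 13.6% passed an unadjusted p under 0.05 by limma, 10.6% with RST lower.

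Of the cofactors of the family, 9 of 11 had the lower mean in RST blood (list median -0.21 relative to the median gene, -0.10 when control mouse 1 was left out, -0.11 for RST mouse 1, -0.14 for RST mouse 4 and -0.069 with the hybridization control signal in the model), and 3 of these and 1 of the others passed an unadjusted p of 0.05. The histone deacetylase gene Hdac2 averaged 5.27 ± 0.28 in RST and 6.09 ± 0.23 in control mice (SD, n = 4 each, limma adjusted p = 0.321), with no overlap. Of all probe sets kept, 13.6% passed an unadjusted p under 0.05 by limma, and 7.99% did not overlap between groups. Of the other family members, 8 of 14 measured were kept, 3 with the higher and 5 with the lower mean (list median 0.16 relative to the median gene, 0.038 when RST mouse 2 was left out, 0.035 for control mouse 3 and 0.26 for RST mouse 4). Klf16 averaged 3.61 ± 1.15 in RST and 5.03 ± 0.53 in control mice (limma unadjusted p = 0.0171, adjusted p = 0.322). Of the immediate early genes, 4 had the higher and 8 the lower mean (list median 0.080 relative to the median gene), and the median turned to -0.074 without RST mouse 3 and reached 0.29 without RST mouse 1.

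Of the 8 lists of blood cell markers, those of B cells and of eosinophils and basophils had mean levels that did not overlap between the groups. After subtracting each array's median gene, both of these overlapped. The reticulocyte and platelet levels were then higher in RST mice without overlap. The T-cell level was lower without overlap by a narrow gap, 1.73 in RST mouse 2 against 1.75 in control mouse 3. The eosinophil and basophil level was low, 2.91 to 3.43 in RST mice against 3.69 to 4.92 in control mice. Over all genes kept, 67.6% had the lower mean in RST blood. Of all probe sets kept, 13.6% passed an unadjusted p under 0.05 by limma, 10.6% with RST lower. List medians are given relative to the median gene. All 7 kept B-cell markers had the lower mean in RST blood, each at an unadjusted p under 0.05 (median -0.84), and their mean level was 7.33 to 7.51 in RST mice against 7.86 to 8.82 in control mice. Of T-cell markers, 9 of 9 had the lower mean (median -0.44), 5 at an unadjusted p under 0.05, and their mean level was 6.19 to 7.09 in RST mice against 7.02 to 7.68 in control mice. Of natural killer cell markers 5 of 6 had the lower mean (median -0.56), of monocyte markers 7 of 8 (median -0.16), of eosinophil and basophil markers 6 of 6 (median -0.43) and of neutrophil markers 4 of 7 (median -0.28). The monocyte median turned to 0.028 without control mouse 1 and to 0.22 with the hybridization control signal in the model. The neutrophil median was -0.017 without RST mouse 1 and -0.053 with that signal in the model, and the eosinophil and basophil median was -0.94 without control mouse 2. Without control mice 1 and 2 the B-cell median was -0.47 and the reticulocyte median 0.32. When RST mouse 2 was left out as well they were -0.39 and 0.40. Reticulocyte markers had the higher mean in 9 of 10, 4 at an unadjusted p under 0.05 (median 0.61), with a mean level of 8.54 to 9.35 in RST mice against 7.95 to 8.81 in control mice. Platelet markers had the higher mean in 8 of 9, 0 at an unadjusted p under 0.05 (median 0.46), with a mean level of 9.79 to 10.35 in RST mice against 9.77 to 10.10 in control mice. Not taken relative to the median gene, the platelet median was 0.22. No marker was listed at 0, and Pax5 and Fcer1a were below the filter.

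Some factors followed these markers over the 8 mice, both taken after subtracting each array's median gene. These correlations are descriptions over 8 arrays, which share the group difference and the array differences given above. Klf13 correlated with the B-cell level at r = 0.783, the natural killer level at 0.739 and the T-cell level at 0.437. Klf2 correlated at 0.619 with the B-cell and at 0.0103 with the T-cell level. Klf7 correlated at 0.803 with the platelet level, and Klf9 1428288_at at -0.85 with it. Klf4 gave -0.373 and Klf10 0.652 with the monocyte level. The difference between the Klf3 probe sets 1421604_a_at and 1454666_at ranked the 8 mice in the same order as the platelet level (Spearman's rho = 1, r = 0.967), which after that subtraction did not overlap between groups, and gave 0.812 with the reticulocyte and -0.643 with the B-cell level. The part of cell composition in any factor's difference was not tested.

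Among themselves, after subtracting each array's median kept probe set, Klf2, Klf6 and Klf13 correlated at 0.772 to 0.791 over the 8 mice. Klf3 with Klf10 gave 0.739, and the lowest value was that of Klf4 with Klf13, -0.608. Of the 11761 other genes, those with the profile most like each factor, by Pearson's r over the same 8 mice, were Adgre5 (0.977) for Klf2, Foxn2 (0.981) for Klf3, Hnf4g (0.934) for Klf4, Trat1 (0.969) for Klf6, Usp4 (0.986) for Klf7, Lurap1l (0.964) for Klf9, Rnf13 (0.979) for Klf10, Bend3 (0.974) for Klf12 and Map3k3 (0.994) for Klf13. Each was the highest of all those genes, and the values are given as descriptions.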

How the data were processed

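Whole-blood RNA (30 ng per mouse) was amplified and hybridized to Affymetrix Mouse Genome arrays, whose number limits the precision. The authors deposited log2 values, used as given. The processing notes name robust multichip averaging (RMA), Affymetrix Expression Console 1.2.0.20 and Partek, whereas the methods name GSRMA in Partek. Which of these made the values is not settled, and the choice can alter differences at low intensity. Probe sets were named from GEO's platform annotation: 34958 had 1 gene symbol, 932 several and 9211 were not listed. Suffix _s_at or _x_at probe sets may share sequence with other genes. Of 45037 non-control probe sets (64 control probe sets left out), a probe set was tested if 2 or more arrays of either group had it above that array's median. Group differences were fitted by limma (version 3.58.1, R 4.3.3) with Benjamini-Hochberg adjustment, and for single values with the two-sided exact permutation test over mice (smallest p 0.029). The limma fit was also run on simulated data drawn independently for each probe set and array, which did not cover shared array differences. Probe sets of 1 gene were compared by fitting the within-array difference. Promoter sequences were from RefSeq (GRCm38.p6). Genes were named by rule: all members, each represented by its kept probe set with the highest mean, the genes of smallest unadjusted p in each list, and the genes most correlated with each member. The members and lists were chosen with earlier results of these data known. Replicate numbers were given in both groups, but same-numbered mice deviated together at -0.245, 0.422, 0.0463 and 0.2, so they were not paired. Alternatives covered the filter, normalization, prior, array weights, hybridization control signal, block and mice left out.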

Additional observations from a re-analysis of the deposited data

Results flagged for a closer look

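One value among the kept member probe sets stood apart from its group, out of 54 groups of 4 mice examined. Chance flags about 1 in 20. At Klf3 1441200_at, RST mouse 2 read 5.86 and the nearest of the other RST mice 5.20, a gap of 0.987 of the group's range and above Dixon's critical value. That array was one of the 3 with low hybridization control signal, and its part in the value was not tested.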

How the results depend on the processing

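No member probe set was called at an adjusted p under 0.05 under any of the 21 alternatives. The member count at an unadjusted p under 0.05 was 1 in the main analysis, 2 without the intensity filter, with scaling on control probe sets, with a trended and robust prior and with the methods' ANOVA, 3 with median centring and with the hybridization control covariate, 4 with quantile normalization and with array weights, and 0 without control mice 1 and 2; leaving out each mouse gave 0 to 4, with 0 without RST mouse 1 or control mouse 2, 2 without RST mouse 4, 3 without control mouse 3 or 4 and 4 without RST mouse 2. Over all probe sets, 3337 passed an unadjusted p under 0.05 with a fold above 1.5, against 5539 with array weights, 2091 with the hybridization control covariate, 856 without control mice 1 and 2, and 1198 without these and RST mouse 2, which was added after the data were seen; leaving out each mouse gave 1731 (control mouse 1) to 4933, and 1751 without control mouse 2. The count called after adjustment was 0 in the main analysis, 35 with a trended and robust prior, and 0 in each analysis without 1 mouse. Klf12 turned to -0.063 with scaling on control probe sets, -0.089 without control mice 1 and 2 and -0.011 without control mouse 1 (range without 1 mouse -0.011 to 0.28). Klf7 turned to -0.064 with the mean of its probe sets, and Klf9 to 0.099 without RST mouse 2 (range -0.74 to 0.099). The causes were not tested. With the replicate number as a block, 4234 probe sets passed and 1 member did, and 0 were called after adjustment; the numbers were not taken to pair the mice. The median of all probe sets was -0.20 in the main analysis, -0.40 with scaling on control probe sets, -0.017 with quantile normalization, 0.064 with median centring and -0.098 without RST mouse 4. With 4 arrays per group the exact permutation test could give no p below 0.029.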
